A study of Mus musculus with 14 samples.

Results

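The subject is the set of forward tags that lie at other sites of a transcript than its main one. Tags are 20-base sequences that start with GATC, and the authors gave each distinct tag a numeric class code and, where they could place it, a UniGene id, which stands for a cluster of transcripts of 1 gene. The members are the distinct tags with code 5 or 6 and a UniGene id, mitochondrial rows left out. They number 35266 of the 1538190 distinct tags of the series, and hold 429375 counts. Codes 1 to 4 are taken here as the main sites of a transcript on the same strand. What each code stands for is not stated in the labels or files, so this reading, the strand included, rests on the code alone. The measure followed is the share of an id, its counts at codes 5 and 6 as a percent of its counts at codes 1 to 6.

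The study profiled 14 libraries of C57BL6 mice, 1 female and 1 male library for each of 7 tissues, which were hippocampus and spinal cord, stomach, pancreas, parotid gland, liver and bone marrow. The labels name no genotype, treatment or age. They do not state the number of mice pooled into a library, and p-values here rest only on the spread between these libraries, which may be technical in part. The female liver library is labelled as right lobe and the male one as left lobe. Total RNA was used in all groups, the cDNA was cut with DpnII, and 20 bases next to the cut nearest the 3′ end were kept.

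A messenger RNA ends where the primary transcript is cleaved and a poly(A) tail is added, and many genes carry several such ends. Use of an upstream end shortens the 3′ untranslated region, or, where the end lies within an intron, changes the coding sequence as well. In nervous tissue long 3′ untranslated regions are known to be common. In a method that keeps the tag next to the last DpnII site, a tag at another site of the transcript can arise from a different 3′ end, from a splice form, or from a last site that the enzyme left uncut. The counts alone do not separate these sources, and none of them was tested.

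The tags that carry the main results are printed here, 5′ to 3′ as deposited, with the DpnII site in capitals. For each id the most abundant tag at an other site is followed by the most abundant tag at a main site, so that the places where a transcript was read can be compared. The ids were picked as examples of a nervous tissue difference, a difference between the nervous tissues, a liver difference and a tag rich in A. No genome was given, so the sites have no coordinates here.
Glutaminase, other site: GATCttcacgttttccacat
Glutaminase, main site: GATCaggtagtgttgctttt
Plpp2, other site: GATCgtggtgagggcaatgt
Plpp2, main site: GATCtgccattcccatctgt
Pde4a, other site: GATCtataaattattctact
Pde4a, main site: GATCaattggtccgtcgatt
Hadhb, other site: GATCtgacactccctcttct
Hadhb, main site: GATCtcttcagcacttgcac
Prpf39, other site: GATCaagtaaacaagcttta
Prpf39, main site: GATCagacttatcatttttg
Mobp, other site: GATCaagtgcacggatgggg
Mobp, main site: GATCtgtccacagtaccaag
Snrpb, other site: GATCcaaccatagagagata
Snrpb, main site: GATCttcacacagcattatg
RIKEN cDNA 4631427C17, other site: GATCaaaaaaaaaaaaaaat
RIKEN cDNA 4631427C17, main site: GATCagcaataatgactatg
Over the 14 libraries the glutaminase tags had 7350 counts at the other site and 5029 at the main site, the Plpp2 tags 788 and 615, and the Pde4a tags 1252 and 557. In these ids the other-site tag was the more abundant one. The Hadhb tags had 294 and 2342 counts, the Prpf39 tags 241 and 1160, the Mobp tags 996 and 2061, and the Snrpb tags 70 and 2113. The A-rich tag of RIKEN cDNA 4631427C17 had 2921 counts against 8318 at its main site. Long A runs were rare among the members: 36 of their tags, with 3720 counts, held 10 or more A in a row, against 461 main tags with 383343 counts.

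Other sites were widespread among ids and thinly filled. Of the 23055 ids with a tag of codes 1 to 6, 13820 (59.9%) had at least 1 member, and 847 of these had no tag of codes 1 to 4. The members made up 28.8% of the distinct tags of codes 1 to 6 but 1.28% of their 33672990 counts. Code 5 held 32796 members with a mean of 11.6 and a median of 2 counts, and code 6 held 2470 members with a mean of 19.2 and a median of 3. A code 1 tag had a mean of 1340 counts. An id had a median of 2 members, 5589 ids had 1, and Ube3a, which encodes a ubiquitin ligase, had the most with 35. Singly counted tags were common, with 13531 members (38.4%) seen once in all libraries together and 16723 seen in 1 library, while 167 members were seen in every library. At the other end, 531 members with 100 or more counts held 49.0% of all member counts, and the most abundant one, a tag of the beta-globin id, held 8.11%.

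Most ids used an other site rarely, and few used it for most of their counts. Among the 12811 ids with 100 or more counts of codes 1 to 6, 9421 had a share above 0, 6126 a share above 1%, 1071 above 10%, 141 (1.10%) above 50% and 36 above 90%, and the median share was 0.865%. Where an id had 100 or more member counts, these usually lay on 1 tag: in 359 of 696 such ids a single tag held 80% or more of them. The bases after GATC had a mean GC content of 45.8% in members and 46.9% in main tags. Rows that name a BC or AK cDNA held 55.9% of the members and 44.4% of their counts, RefSeq rows 31.9% and 28.7%, and other accessions 12.1% and 26.9%. The 954 members 1 base away from a more abundant main tag of their id held 2.03% of member counts, and the 1447 members 1 base away from a tag coded as a repeat held 5.58%. RefSeq windows of 250 bases before to 50 bases after the transcript start (GRCm38.p6) matched 111 members on the same strand, with 321 counts, out of 20429 members whose gene had a window. On the opposite strand they matched 37 members, with 78 counts. Of the main tags, 131 matched on the same strand and 64 on the opposite one. Only 50 bases of a window lie after the start, so these matches do not tell how many members lie near a start.

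Library totals ran from 2194028 to 3834568 counts. Every marker of the tissues that could be matched was highest in both libraries of its own tissue, except Snap25, which was higher in spinal cord than in hippocampus, and the spinal cord marker Hoxc8, whose 2 spinal cord libraries did not both exceed all others. Serpina1a, Gkn1, Hbb-b1 and Mpo were not matched. The stomach libraries differed from each other, with Pgc, a pepsinogen gene, at 62091 (female) and 205095 (male) CPM, counts scaled to the size of the library. The tissues are bulk samples, in which fewer cells of a type and less RNA per cell cannot be told apart, and a share can move with the mix of cells.

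A set of unplaced tags touched some members. In the 6 libraries of bone marrow, hippocampus and spinal cord, 1241 tags with no annotation and 100 or more counts each were present in every library. None of them had a count in the other 8 libraries. They made up between 2.06% and 3.7% of the counts of each of the 6 libraries. A member was taken to follow this profile only with 50 or more counts, presence in all 6 libraries and at most 1% of its counts elsewhere. Its SD around the profile had to be 0.25 or less. By this rule 8 of the 35266 members followed the same profile, with 4215 counts together (0.982% of member counts), of which 2 lay in the other 8 libraries. Members with fewer counts could not qualify, so whether more of them belong to the set is not known. They were tags of Sphk2 (1211 counts), Rpl28 (757), the id titled ribosomal protein S16 (663), an id titled as similar to a protease inhibitor (631), Arf1 (514), Hsp90ab1 (244), an influenza virus NS1A binding protein id (138) and Tada1 (57). Their sequences are not printed, and whether they come from these genes was not tested. Counts of called ids are therefore given with and without these 8 tags.

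**Figure D1:**
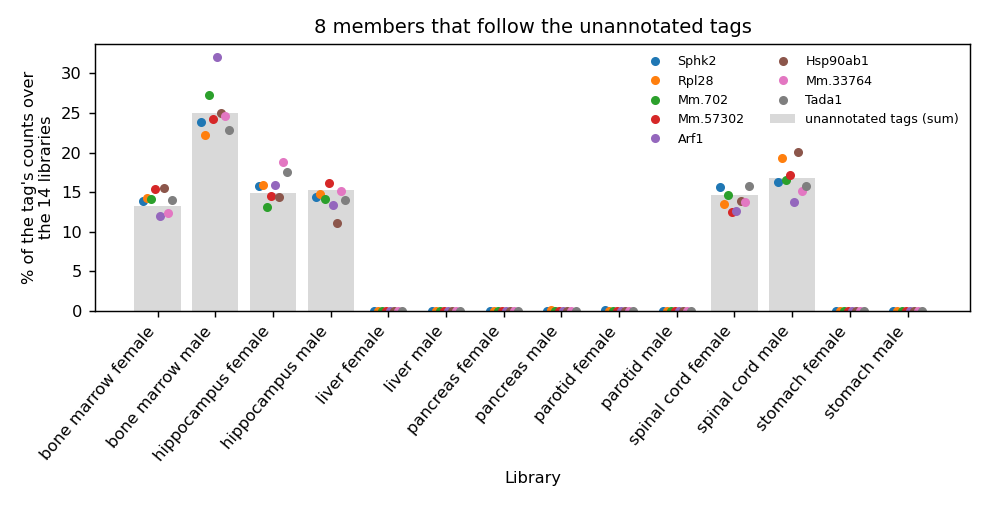
For each of the 8 members, points give the percent of the tag's counts found in each of the 14 libraries, and grey bars give the same for the sum of the 1241 unannotated tags. All 8 members follow the bars in the 6 libraries of bone marrow, hippocampus and spinal cord and are at or near 0 elsewhere.

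The first question was whether tissues differ in how much of their signal lies at other sites. The share over all ids was highest in the nervous tissues and lowest in the exocrine glands. It was 3.36% in the female and 2.62% in the male spinal cord library, 2.68% and 2.58% in hippocampus, 1.71% and 1.86% in bone marrow, 1.24% and 0.927% in liver, 0.932% and 0.822% in stomach, 0.447% and 0.436% in parotid gland, and 0.166% and 0.169% in pancreas. The exact (Clopper-Pearson) 95% intervals, which cover counting error only, were narrow: 3.34% to 3.39% for the female spinal cord library and 0.162% to 0.171% for the female pancreas library. Hippocampus and spinal cord did not overlap with any other tissue, and the male spinal cord library lay between the hippocampus libraries. The tissues differed by more than the libraries within them (F = 47.0, exact permutation test over 135135 pairings of the libraries, one-sided, p = 3.7e-05). Without the 8 tags above, F was 45.3 with the same exact p of 3.7e-05.

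A few genes fill the library of a gland, and the order was computed with and without them. In pancreas 92.0% and 92.7% of the counts of codes 1 to 6 lay on the 20 highest ids, in parotid gland 82.5% and 82.2%, and in hippocampus 8.41% and 8.57%. The secretory genes had few other-site counts: the listed pancreatic enzymes had a share of 0.0739% over 3561503 counts and the salivary genes 0.0338% over 4861378 counts. When the 20 ids with the highest counts were left out, the mean share was 0.522% in pancreas, 1.31% in parotid gland, 1.37% in stomach, 1.36% in liver, 1.79% in bone marrow, 2.67% in hippocampus and 3.03% in spinal cord (F = 35.4, exact permutation p = 0.000192). The median share over the 591 ids that could be tested was 3.31% and 2.56% in the female and male spinal cord libraries and 2.55% and 2.37% in hippocampus. It was 0 in both pancreas libraries, where many ids have few counts, and between 1.38% and 2.20% in the other 8 libraries (F = 17.4, exact permutation p = 0.00449). With the shares of the 2 libraries of a tissue averaged per id before the median was taken, it was 1.52% in pancreas and 1.92% in parotid gland. Bone marrow stood apart in another way, since the beta-globin id Hbb-b2 gave 34.9% and 37.5% of its member counts, with a share of 2.31% and 2.88% of that id's own counts. A setting called here RefSeq, BC or AK rows only leaves out the members on other accessions but keeps all main tags. A share cannot rise in it. The mean share of bone marrow fell there from 1.79% to 0.872%, close to liver at 0.839%. Hippocampus, at 2.16%, and spinal cord, at 2.44%, stayed highest in that setting.

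**Figure D2:**
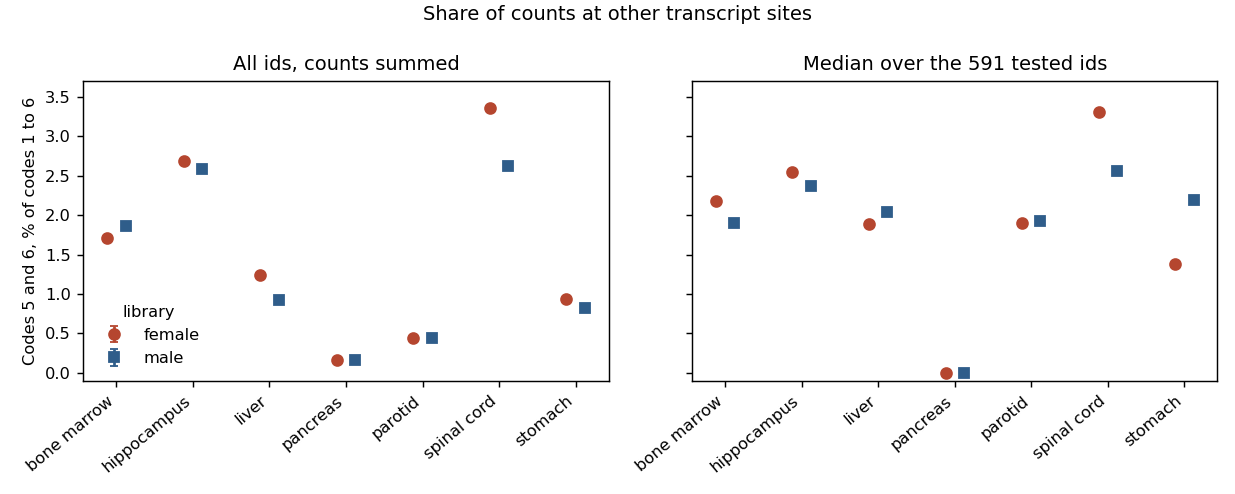
Left, the share of counts at other transcript sites over all ids in each library (percent of codes 1 to 6), by tissue, female as circles and male as squares, with exact 95% intervals that are smaller than the points. Right, the median share over the 591 tested ids. Spinal cord and hippocampus are highest and pancreas is lowest on both sides.

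Male and female libraries were compared in pairs. The share was lower in the male library in 5 of 7 tissues, with a mean difference of -0.162 percentage points (exact sign-flip permutation test, two-sided, p = 0.219, where 7 pairs cannot go below 0.0156). Spinal cord had the widest gap, -0.744 points, and pancreas the narrowest, 0.00229 points.

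To compare single ids, the share was modelled per id, so that the level of a gene drops out. An id was tested if it had 10 or more counts of codes 1 to 6 in every library and 20 or more at codes 5 and 6 over all libraries. Of 1722 ids with that coverage, 591 were tested, and they hold 2907 member tags and 33.3% of member counts. An id can meet the minimum at codes 5 and 6 through 1 group of libraries alone, which favours a call for that group. Differences are given as log2 odds, the log2 of the ratio of other-site to main-site counts in a group over that in the others, with SE. An id was called at an adjusted p (edgeR quasi-likelihood test, Benjamini-Hochberg over all ids tested) under 0.05 and, for a direction, log2 odds of 1 or more. In this fit of 14 libraries the prior degrees of freedom were infinite, so the spread was taken from all ids together. The p-value of an id therefore does not measure that id's own spread between libraries. The share of an id differed between the libraries of a tissue by a median of 1.14 percentage points and between libraries of different tissues by 1.68. The stomach pair differed most, by 2.08 points, against 0.936 to 1.25 in the other tissues.

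Tissues differed in 80 of the 591 ids (13.5%), and 138 had an unadjusted p under 0.05. In 35 of the 80 both libraries of the highest tissue lay above all 12 others, as they did in 92 of all 591 (15.6%). Calls were found on each kind of row: 54 of 437 ids whose top tag sits on a RefSeq, BC or AK row (12.4%) and 26 of 154 on other accessions (16.9%). Without the 8 tags that follow the unannotated set, 75 of 588 ids were called. These counts move with the libraries used. Leaving out the female or the male stomach library raised the calls to 145 or 127, and leaving out both pancreas libraries, which lets more ids be tested, gave 154.

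**Figure D3:**
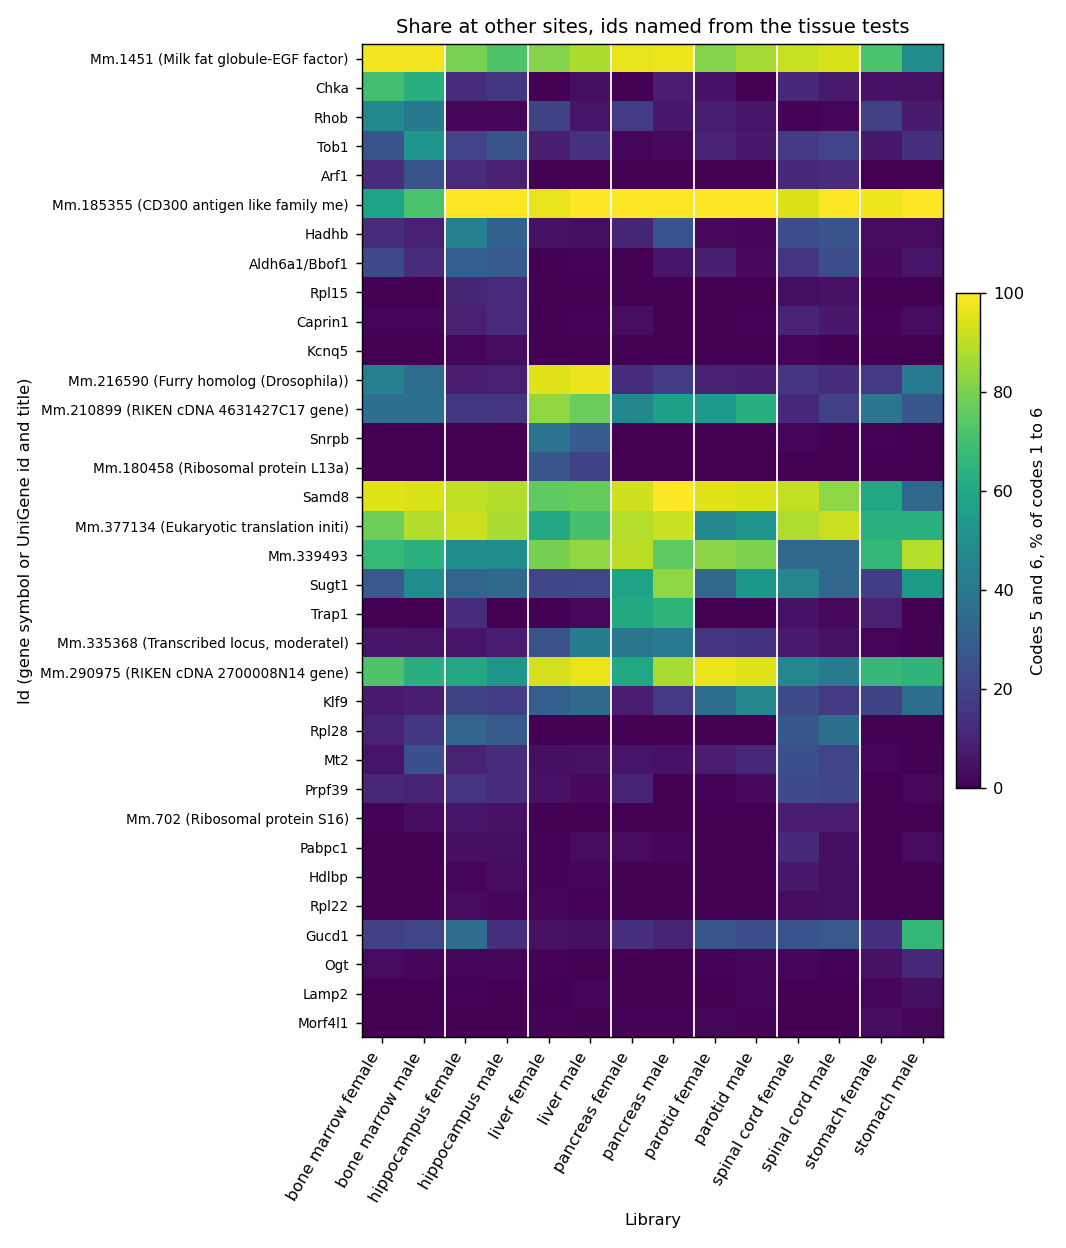
Heat map of the share at other sites (percent of codes 1 to 6, colour scale from 0 to 100) in each of the 14 libraries (columns) for the ids named from the tissue tests (rows). Bands such as bone marrow for Chka, liver for Snrpb and pancreas for Trap1 appear in both libraries of a tissue.

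Nervous tissue was set against the other 5 tissues. In hippocampus and spinal cord together, 61 ids had a higher share (10.3% of those tested) and 9 a lower one (1.52%), and in 22 and 3 of these the 4 nervous libraries did not overlap the other 10. Overlap of these groups was not counted over all 591 ids, so no excess can be read from the 22 and 3. The median log2 odds over all 591 ids was 0.40, and 0.63 with TMM scaling, so single values stand beside a general shift. Its size depends on the filter: with no minimum of other-site counts beyond 1, the median was 0.0858 over 1307 ids. Without the 8 tags that follow the unannotated set, 54 were higher and 9 lower, and leaving out a hippocampus library lowered the total from 70 to 46 (female) or 41 (male).

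Genes of RNA handling and of translation were among the ids with a higher share in nervous tissue. Rpl15, a protein of the large ribosomal subunit, had 10.4% and 12.3% of its counts at other sites in the female and male hippocampus library and 3.60% and 4.57% in spinal cord. In the other 10 libraries it had at most 0.186%, with 4 counts in all, so the 4 nervous libraries lay far above the rest (adjusted p = 1.99e-30, edgeR). The zeros are bounded, since 0 of 349 counts in male pancreas allows a share of up to 0.86%. Rpl15 met the minimum of other-site counts through the nervous libraries alone, so the filter favoured a call in this direction. On RefSeq, BC or AK rows only, Rpl15 could not be tested. Rpl22 was at 2.80% and 1.67% in hippocampus and 3.18% and 3.55% in spinal cord, against 0 to 1.31% elsewhere (log2 odds 2.57 ± 0.49 SE, adjusted p = 8.1e-06). Its groups did not overlap. Pabpc1, the main cytoplasmic poly(A)-binding protein, was at 4.28% and 3.62% in hippocampus and 11.2% and 3.91% in spinal cord, and between 0.28% and 3.06% in the other tissues (2.41 ± 0.48, adjusted p = 1.84e-05). Caprin1, an RNA-binding protein of neuronal RNA granules, was at 9.30% and 12.1% in hippocampus and 9.52% and 6.82% in spinal cord, and lower in every other library, the closest being female pancreas with 1 of 27 counts (2.95 ± 0.50, adjusted p = 2.39e-07).

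Prpf39, a splicing factor that acts with the U1 particle and whose 2 tags are printed above, had 12.7% to 15.4% at other sites in hippocampus and 20.7% to 23.2% in spinal cord. It was at 10.7% and 9.87% in bone marrow, on 3 of 30 and 0 of 22 counts in pancreas, and at most 5.06% in liver, parotid gland and stomach (2.71 ± 0.48, adjusted p = 1.06e-06). The nervous libraries did not overlap the others, though bone marrow came close. Hdlbp, the RNA-binding protein vigilin, was at 7.00% and 3.65% in spinal cord and 1.91% and 3.23% in hippocampus, and at most 1.18% elsewhere (3.03 ± 0.61, adjusted p = 2.35e-05). Ddx5, an RNA helicase, Tial1, an RNA-binding regulator of splicing, and Mbnl1, a splicing factor, also passed, with mean shares of 3.37%, 3.98% and 13.5% in nervous tissue against 0.805%, 0.581% and 6.04% elsewhere. These last 3 were picked for their known roles after their values were seen.

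Other called ids, not drawn from a list, encode metabolic enzymes or a membrane channel. Hadhb, the beta subunit of the mitochondrial trifunctional protein of fatty acid oxidation, was at 43.8% and 30.8% in hippocampus and 23.9% and 25.5% in spinal cord. It was at 25.0% in male and 10.3% in female pancreas, at 13.3% and 8.89% in bone marrow, and at most 4.57% in liver, parotid gland and stomach (2.92 ± 0.43, adjusted p = 1.25e-09). The male pancreas library, with few counts, overlapped with spinal cord. Aldh6a1, a mitochondrial enzyme of valine breakdown, was at 29.8% and 28.3% in hippocampus and 15.5% and 23.8% in spinal cord, against 0.493% and 1.12% in liver (nervous 2.95 ± 0.48, adjusted p = 6.7e-08). The id of Aldh6a1 also matches Bbof1, so its counts may not be those of Aldh6a1 alone. The leading other-site tag of this id is 1 base away from a repeat tag. Kcnq5, a neuronal potassium channel subunit, had other-site counts in nervous tissue alone, at 1.76% and 3.14% in hippocampus and 1.55% and 0.746% in spinal cord. That is 26 counts, against 0 in 10 libraries, where 0 of 68 counts in female pancreas still allows up to 4.41% (adjusted p = 1.88e-05). Kcnq5 met the minimum of 20 other-site counts through the nervous libraries alone, so the filter favoured a call in this direction. It could not be tested without the male hippocampus library or without tags seen in 1 library. Mt2, a metal-binding metallothionein, was at 9.43% and 12.7% in hippocampus and 24.3% and 20.5% in spinal cord (adjusted p = 0.000301), with bone marrow overlapping at 5.71% and 24.3% and parotid gland at 7.81% and 11.5%. On RefSeq, BC or AK rows only, which leaves out its top tag, it was not called (adjusted p = 0.091).

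Several of the largest nervous tissue values belong to tags that follow the unannotated set. Rpl28 was at 32.4% and 28.4% in hippocampus, 27.4% and 37.1% in spinal cord and 9.81% and 16.4% in bone marrow, and at most 0.508% elsewhere (adjusted p = 1e-36). The ribosomal protein S16 id was at 5.65%, 4.62%, 8.04% and 7.6% in the same 4 nervous libraries (adjusted p = 3.33e-24). Arf1, a small GTPase of Golgi transport, was at 9.27% to 12.7% in nervous tissue and 12.8% and 25.7% in bone marrow, against at most 0.243% in the rest (adjusted p = 4.06e-16). Without these tags none of these 3 ids had enough other-site counts to be tested. The part that the unannotated set has in these values was not tested.

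**Figure D4:**
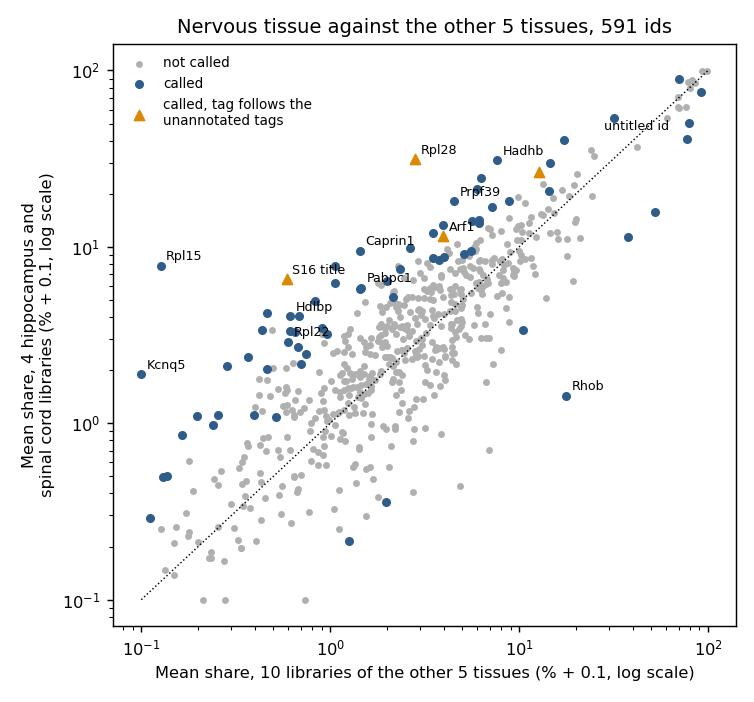
Each of the 591 tested ids by its mean share in the 10 libraries of the other 5 tissues (x) and in the 4 hippocampus and spinal cord libraries (y), both as percent + 0.1 on log axes. Blue points are called ids, orange triangles are called ids whose tag follows the unannotated tags, and most called ids, 61 of 70, lie above the diagonal.

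The ids with a lower share in nervous tissue were fewer. Rhob, a small GTPase of endosome traffic, was at 1.31% and 1.38% in hippocampus and 0.877% and 1.75% in spinal cord, against 5.48% to 19.2% in liver, pancreas, parotid gland and stomach and 46.8% and 40.3% in bone marrow (-3.69 ± 0.53, adjusted p = 3.05e-10). Its nervous libraries lay below all others. An id with no title, marked as untitled in the nervous tissue plot, was at 48.7% and 48.5% in hippocampus and 33.3% in both spinal cord libraries, and at 63.6% to 89.5% elsewhere (-2.33 ± 0.57, adjusted p = 0.000759). Morf4l1, a chromodomain protein of histone acetylation complexes, was at 0.0483% to 0.164% in nervous tissue and at 1.7% to 3.14% in stomach, with bone marrow overlapping at 0.0706% and 0.312% (-3.05 ± 0.70, adjusted p = 0.000301). The id titled RIKEN cDNA 4631427C17, whose A-rich tag is printed above, was at 11.7% to 19.1% in nervous tissue and at 83.4% and 77.1% in liver (nervous -2.61 ± 0.39, adjusted p = 1.25e-09). That tag is 1 base away from a repeat tag and has code 6. With code 5 tags alone the liver value turned to -0.42, and neither call remained.

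Each tissue was then set against the other 6. For these comparisons overlap was not counted over all 591 ids. No excess can therefore be read from the numbers of called ids free of overlap, for any tissue. Bone marrow had 21 ids with a higher share (3.55%) and 4 with a lower one (0.677%), with no overlap between its 2 libraries and the other 12 in 13 and 1. Without its female or male library, 13 or 7 ids were called in all. Chka, which makes phosphocholine for membrane lipid synthesis, was at 69.8% and 62.5% in bone marrow and at most 16.3% elsewhere (5.17 ± 0.77, adjusted p = 2.68e-09). Rhob was the other clear case (3.72 ± 0.53, adjusted p = 5.84e-10). The id titled Milk fat globule-EGF factor 8 protein, a secreted protein that tags dying cells for uptake, was at 98.2% and 98.3% in bone marrow, at 49.1% and 71.5% in male and female stomach, and at 72.4% to 97.5% in between (bone marrow 3.19 ± 0.57, adjusted p = 2.56e-06). The id titled CD300 antigen like family member B ran the other way, at 57.8% and 71.8% in bone marrow and at 94.6% to 100% in all other libraries (-5.99 ± 0.84, adjusted p = 4.18e-10).

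Hippocampus alone had 35 ids higher (5.92%) and 9 lower (1.52%), with 8 and 0 free of overlap, and spinal cord had 28 higher (4.74%) and 6 lower (1.02%), with 6 and 2 free of overlap. These 2 comparisons share 10 of the libraries on their control side. The 44 hippocampus calls became 9 or 13 without the female or male hippocampus library, 20 without male spinal cord, 27 without female pancreas and 68 without female stomach. The 34 spinal cord calls became 5 or 20 without the female or male spinal cord library, 19 without female pancreas and 62 or 72 without female or male stomach. Rpl15, Hadhb, Aldh6a1, Caprin1 and Kcnq5 were called in both. Of these, Rpl15 was also called in each tissue without either of its libraries. In hippocampus the Hadhb and Aldh6a1 calls were lost without the female library (adjusted p = 0.059 for both, edgeR). In spinal cord these 2 were lost without either library, and Caprin1 and Kcnq5 without the female one. Prpf39 was called in both, with 2.71 ± 0.55 in spinal cord (adjusted p = 8.57e-05) and 1.80 ± 0.55 in hippocampus (adjusted p = 0.0223). The first was lost without the female spinal cord library (adjusted p = 0.0652, edgeR) and the second without either hippocampus library. Hdlbp was called in spinal cord (3.13 ± 0.68, adjusted p = 0.00028), a call that the female spinal cord library carries, with an adjusted p = 0.309 (edgeR) without it.

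Liver had 13 ids higher (2.2%) and 3 lower (0.508%), with 7 and 1 free of overlap. Without the female or male liver library 8 or 5 were called in all, and without female or male stomach 27 or 28. Snrpb, a core protein of the spliceosomal small ribonucleoproteins, was at 38.1% and 28.6% in liver, on 67 of 176 and 57 of 199 counts. It was at most 1.64% in the other 12 libraries, with 0 in 8 of them (adjusted p = 1.7e-19). The shallowest of these zeros, 0 of 25 counts in female pancreas, allows up to 12%, still below both liver libraries. The id titled ribosomal protein L13a was at 26.8% and 19.5% in liver and at most 0.481% elsewhere (7.17 ± 0.65, adjusted p = 7.09e-25), and the id titled Furry homolog was at 95.2% and 96.9% in liver and at most 43.8% elsewhere (6.85 ± 0.84, adjusted p = 1.09e-13). The leading tags of these 2 ids are 1 base away from repeat tags, and without such tags the first was not called (adjusted p = 0.705, edgeR) and the second could not be tested. Gucd1 had a lower share in liver, at 4.37% and 4.23%, below each of the other 12 libraries (-2.68 ± 0.63, adjusted p = 0.00146). Leaving out either liver library ended that call.

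Albumin, the main plasma protein, had a share of 0.597% and 0.320% in liver, on 93417 and 101559 counts, and was called in liver (adjusted p = 0.0175). Only 2 other-site counts lay outside liver, 1 of 1792 in female stomach and 1 of 127 in male pancreas, a value (0.787%) that rests on that single count. Albumin met the minimum of other-site counts through the liver libraries alone, so the filter favoured a call for liver.

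Pancreas had 3 ids higher (0.508%) and 1 lower (0.169%), with 2 and 1 free of overlap. Without either of its libraries 1 was called, and without female or male stomach 8 or 10. Trap1, a mitochondrial HSP90-type chaperone, was at 60.9% and 65.2% in pancreas, on 14 of 23 and 15 of 23 counts, and at most 12.9% in any other library (adjusted p = 4.36e-09). Sugt1, a cochaperone of HSP90, was at 58.0% and 82.9% in pancreas and at 18.4% to 54.4% elsewhere (2.25 ± 0.61, adjusted p = 0.0314), a call lost in 11 of 25 other settings. Tob1, an antiproliferative protein that recruits deadenylases to messenger RNA, was lower in pancreas, at 1.80% and 2.22% against 6.78% or more in all other libraries (-3.18 ± 0.70, adjusted p = 0.00173). It was not called without either pancreas library.

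Parotid gland had 3 ids higher (0.508%) and 6 lower (1.02%), with 1 and 3 free of overlap. The 9 calls became 0 or 1 without the female or male parotid library, 19 without male stomach, 4 without female pancreas, male liver or female spinal cord and 5 without male bone marrow. Klf9, a transcription factor of the Krüppel-like family, was at 36.2% and 46.2% in parotid gland and at 7.32% to 36.1% elsewhere (1.65 ± 0.48, adjusted p = 0.0383), but 17 of 28 other settings lost the call. The id titled Eukaryotic translation initiation factor 2, subunit 2 was at 46.3% and 52.0%, below the 60.5% to 92.4% of the other 12 libraries (-2.34 ± 0.49, adjusted p = 0.000471). Hadhb and Pabpc1 were lower as well, at 2.21% and 1.69% and at 0.280% and 0.337%. These 3 calls were lost when either parotid library was left out.

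Stomach had 5 ids higher (0.846%) and 7 lower (1.18%), with 3 and 5 free of overlap. Without the female stomach library 45 were called, 29 of them higher, and without the male one 17, with 9 higher. The number was 6 without female pancreas and 7 without male parotid gland or male spinal cord. Samd8, which makes ceramide phosphoethanolamine, was at 59.4% and 33.9% in stomach and at 75.5% to 100% elsewhere (-3.60 ± 0.59, adjusted p = 2.91e-07). Mt2 was at 1.5% and 0.647% in stomach and at 4.12% to 24.3% elsewhere (-3.39 ± 0.64, adjusted p = 2.09e-05), and was not called on RefSeq, BC or AK rows only. Another id with no title was at 1.52% and 0.760% in stomach, at 24.7% and 41.8% in liver and at 39.1% and 41.7% in pancreas (stomach -3.79 ± 0.55, adjusted p = 4.05e-09). Morf4l1 (2.66 ± 0.67, adjusted p = 0.00704) was higher in stomach, and so were Lamp2, a lysosomal membrane protein with alternative last exons, at 1.87% and 3.88%, and Ogt, the enzyme that adds O-GlcNAc to proteins, at 4.40% and 11.1%. Lamp2 rests on 38 member counts and Ogt on 119, and 7 and 13 of 27 other settings lost their calls. Morf4l1 was not called without the female stomach library (adjusted p = 0.108, edgeR).

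Hippocampus and spinal cord were also compared with each other, in a fit on their 4 libraries that was added after the data were seen. It tested 1872 ids with 10 or more counts in each of the 4 libraries. The 2 nervous tissues differed in few of them: 6 were higher in hippocampus (0.321%) and 5 were lower (0.267%), while 196 had an unadjusted p under 0.05. In each of the 11 called ids the 2 hippocampus libraries did not overlap the 2 spinal cord libraries, which also held for 763 of all 1872 (40.8%). The split by direction moved with the setting: 9 were higher and 21 lower without tags 1 base from a repeat tag, 9 and 16 with code 5 only, and 4 and 17 without the male spinal cord library.

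Glutaminase, the enzyme that makes glutamate from glutamine and whose gene is known for splice forms with different 3′ ends, showed a difference on the most counts. Its share was 49.3% and 48.9% in hippocampus (1624 of 3293 and 1823 of 3728 counts) and 75.0% and 74.9% in spinal cord (2008 of 2678 and 1994 of 2662), with log2 odds of -1.63 ± 0.29 (SE) and an adjusted p = 0.000488 (edgeR). The libraries of a tissue were nearly equal, and the tissues far apart. Outside nervous tissue the id was sparse, with 0 of 108 and 2 of 98 counts at other sites in female and male bone marrow. Plpp2, a membrane phosphatase of lipid phosphates, was at 96.4% and 95% in hippocampus and 79.1% and 82.0% in spinal cord (2.43 ± 0.49, adjusted p = 0.00451). In parotid gland and stomach its main-site tag was the one in use: 0 of 34 and 0 of 50 counts in parotid gland and 1 of 166 and 0 of 197 in stomach lay at other sites, where the last 0 allows up to 1.52%.

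Ciapin1, a protein of cytosolic iron-sulfur cluster assembly, was at 39.3% and 34.6% in hippocampus and at 3.23% and 0 of 108 counts in spinal cord (5.17 ± 0.75, adjusted p = 1.46e-05), and at most 3.12% in all other libraries. The id titled RIKEN cDNA 5830446M03 was at 72.9% and 88.5% in hippocampus and 93.2% and 88.5% in liver, and at 0 of 59 and 0 of 51 counts in spinal cord (adjusted p = 7.75e-11). Aldh16a1 was at 66.7% and 70.6% in hippocampus and 16.7% and 0 in spinal cord, on 12 of 18 and 12 of 17 counts (4.36 ± 1.01, adjusted p = 0.0168). Evi2a, a membrane protein gene that sits inside an intron of Nf1, was at 65.8% and 53.2% against 34.8% and 19.0% (2.01 ± 0.49, adjusted p = 0.0249), with a leading tag 1 base away from a repeat tag. The id of Evi2a also matches the symbol Evi2. Rpl15 was the sixth, higher in hippocampus than in spinal cord by 1.58 ± 0.38 (adjusted p = 0.0249).

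In the other direction, Lingo2, a leucine-rich repeat membrane protein of neurons, was at 7.14% and 9.09% in hippocampus and 61.9% and 78.9% in spinal cord, on 11 to 21 counts per library (-4.57 ± 0.96, adjusted p = 0.00549). The id titled Ras-GTPase-activating protein SH3-domain binding protein was at 2.29% and 1.64% against 17.6% and 12.4% (-3.05 ± 0.63, adjusted p = 0.00521). Fosb, an AP-1 transcription factor with a truncated splice form, was at 86.4% and 74.1% in hippocampus and 98.6% and 100% in spinal cord (-4.90 ± 0.97, adjusted p = 0.00339), and the milk fat globule id was lower in hippocampus by 1.97 ± 0.46 (adjusted p = 0.0168). With 2 residual degrees of freedom these calls are fragile. DESeq2 called 2 of the 1872 ids, the RIKEN cDNA 5830446M03 id and Ciapin1, and leaving out 1 library gave 2 to 21 calls. Each of the other 9 lost its call without at least 1 of the 4 libraries. The glutaminase and Plpp2 calls were lost when either hippocampus library was left out, and Plpp2 also without the female spinal cord library. On RefSeq, BC or AK rows only, glutaminase was not called (adjusted p = 0.872, edgeR). That setting leaves out its top tag, with 7350 of its 7461 member counts, so it cannot test the difference seen on this tag.

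**Figure D5:**
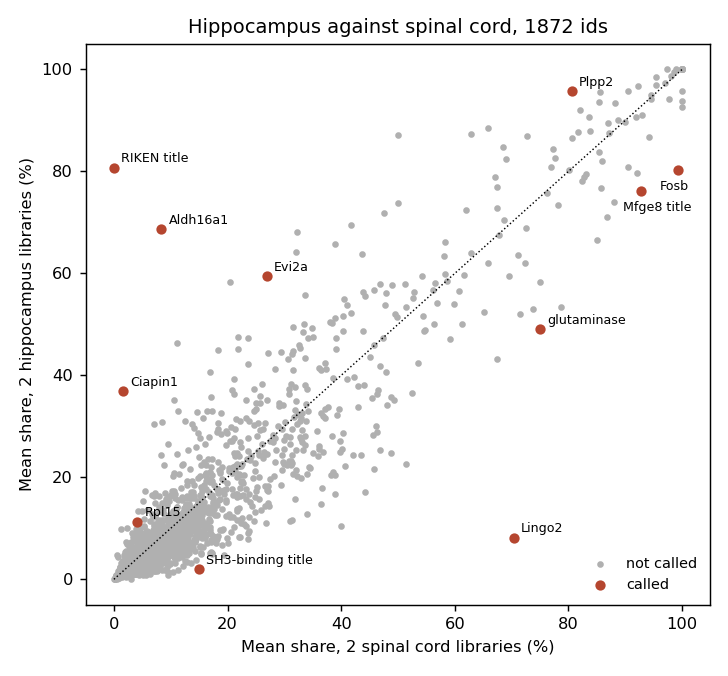
Each of the 1872 ids by its mean share at other sites in the 2 spinal cord libraries (x, percent) and the 2 hippocampus libraries (y, percent). The 11 called ids, in red and named, lie away from the dotted diagonal of equal shares.

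Sex was compared within the same 14-library fit. One id, 1 of 591 (0.169%), was called, and 30 had an unadjusted p under 0.05. It was the id titled ubiquitin A-52 residue ribosomal protein fusion product 1, which encodes ubiquitin fused to a ribosomal protein, with a lower share in males (-1.91 ± 0.48, adjusted p = 0.0353). The female library was higher in 6 of 7 tissues, but the sizes differed widely: 6.58% against 0 in stomach, on 109 of 1656 and 0 of 1816 counts, 1.82% against 0.124% in liver, and under 1 percentage point of difference in the other 5 tissues. The call was lost in 16 of 24 other settings.

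Some ids outside the tested set differed sharply within the stomach pair. Pde4a, a phosphodiesterase that breaks down cyclic AMP, had 67.4% and 67.8% in hippocampus and 64.6% and 71.1% in spinal cord, while stomach had 75.5% (female) and 8.33% (male). Its printed other-site tag had 40 counts in female and 0 in male stomach. Ptbp3, an RNA-binding splicing regulator, was at 60.3% and 8.77% in stomach, 87.7% and 92.5% in hippocampus and 89.0% and 88.5% in spinal cord. Nipal2, a magnesium transporter-like protein, was at 81.0% and 10.1% in stomach. These 3 ids were picked after their values were seen, with 1 library per sex and tissue, and the stomach libraries also differ in Pgc as given above, so sex and the sampled part of the stomach cannot be told apart here.

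Use of an other site for most of an id's counts in 1 tissue and not in another was rare. Among 9674 ids with 20 or more counts in both libraries of 2 or more tissues, 45 (0.465%) were above 50% in both libraries of 1 tissue and below 50% in both of another, and 47 were above 50% in every tissue with that many counts. By tissue, 24 of the 45 were above 50% in hippocampus (0.264% of the 9081 ids with enough counts there), 15 in spinal cord (0.167%), 13 in liver (0.219%), 9 in bone marrow (0.124%), 5 in stomach (0.0923%), 5 in parotid gland (0.101%) and 4 in pancreas (0.381% of 1051). By count hippocampus leads, and by share of its ids pancreas. Picalm, a clathrin assembly protein, was at 59.0% and 56.4% in hippocampus and 14.4% to 20.3% in stomach, on 1377 member counts. Prlr, the prolactin receptor, a gene known for long and short forms with different last exons, was at 79.7% and 67.3% in liver and at 11.1% to 13.3% in hippocampus and parotid gland. Slc39a3, a zinc transporter, was at 76.0% and 61.9% in liver and at 9.76% to 15.9% in the nervous tissues. Exoc7, a subunit of the exocyst, was at 54.4% and 56.7% in hippocampus and at 43.6% and 44.8% in spinal cord. A second id titled ribosomal protein L15 was also among the 45, above 50% in hippocampus and below in spinal cord and liver, with 189 member counts.

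The ids with the most other-site signal were led by beta-globin, at a mean of 748 CPM, followed by the id titled RIKEN cDNA 2700008N14 at 165, glutaminase at 160 and the translation initiation factor 2 id at 109. The RIKEN cDNA 2700008N14 id had 99.7% of its 7845 member counts on 1 tag of code 6. Its share was 93.3% and 96.7% in liver and 96.8% and 94.9% in parotid gland, against 46.2% and 41.6% in spinal cord (spinal cord -2.50 ± 0.48, adjusted p = 2.5e-05). Several abundant ids had a high share in every library: the id titled Similar to 40S ribosomal protein S29 was between 60% and 89.7%, Kif1c, a kinesin motor, between 57.2% and 80.3%, and Cbx1, a heterochromatin protein, between 55.9% and 88.6%. None of these 3 was called between tissues, with adjusted p of 0.565, 0.999 and 0.205 (edgeR).

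Gene lists were described by counts. Over all ids, 59.9% had a member, the share was 1.28% and the median share of ids with 100 or more counts was 0.865%. Of 29 matched ribosomal protein genes, 24 had a member, and their share was 0.343% over 428520 counts, with a median of 0.107%. Of the 11 tested, 4 were called higher in nervous tissue, beside 61 of 591 of all ids, and 0 lower: Rpl28, Rpl15, Rpl22 and Rpl12, of which Rpl28 follows the unannotated set. The median log2 odds of the 11 tested was 1.70, against 0.40 over all ids. Only these 11 of the 29 passed the filter, which an id can meet through its nervous counts, as Rpl15 did. Neither the 4 calls nor this median therefore stands for the ribosomal protein genes as a set. Rpl3, Rplp1 and Rpl35a, with 32243, 43987 and 6752 counts, had 1, 0 and 0 counts at other sites.

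Among genes with well known alternative 3′ ends, 16 of 17 matched had a member and the share was 1.25%, with a median of 0.774% over the 15 with 100 or more counts. Eif4e, the cap-binding initiation factor, was tested and not called (adjusted p = 0.354, edgeR). Mapt, the microtubule protein tau, was at 2.72% and 2.38% in hippocampus and 4.24% and 2.75% in spinal cord. Cstf3, a subunit of the cleavage factor that is known to end within an intron of its own gene, was at 23.9% and 25.9% in hippocampus and 45.8% and 33.9% in spinal cord, on 106 member counts. In the 3′ end machinery list, which shares Cstf3, 17 of 20 matched genes had a member, the share was 2.85% and the median 2.28%. Rbbp6 was at 12.3% and Cstf2t at 11.6% over all libraries. Pabpc1 and the poly(A) polymerase Papola were tested; Papola, at 0 to 7.26%, was not called (adjusted p = 0.999, edgeR).

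The myelin genes had a share of 4.30% and a median of 2.18%, and the synaptic genes 2.73% and 1.66%. Mobp, a myelin protein of oligodendrocytes, was at 8.57% and 9.66% in hippocampus and 16% and 13.8% in spinal cord, and its 2 printed tags had counts in no other tissue. The difference between these tissues was not called (adjusted p = 0.292, edgeR). Syp, the vesicle protein synaptophysin, was at 2.51% to 3.52% in the 4 nervous libraries, and Vamp2, the only synaptic gene tested, at 4.61% to 5.84% without a call. Cldn11 and Ugt8a, with 7041 and 1722 counts, had no other-site count. The 15 plasma protein genes had a share of 0.319%, the 7 blood cell genes 0.281% and the 6 gastric genes 0.0625%, with medians of 0.0372%, 0 and 0.62%. The pooled gastric value rests on Pgc, with 644958 of the 761434 counts and 12 at other sites. Among secretory genes Pnlip, the pancreatic lipase, had the most member counts, 1060, at 0.520% and 0.552% in pancreas, and Smr3a had none among 1465027 counts. Apoc3, an apolipoprotein that slows the clearance of triglycerides, was at 0.329% and 0.155% in liver, where it had 12163 and 9699 counts. In bone marrow, hippocampus and spinal cord, on 29 to 73 counts per library, its share was 49.1% to 93.1%, and its leading other-site tag is 1 base away from a repeat tag.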

How the data were processed

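Per the labels' protocols, cDNA was cut with DpnII and 20-base tags next to the cut were sequenced on microbeads. The deposited files give, per library, counts of each tag with the authors' code and UniGene id; values are raw counts, with aligner and build not stated in those sources. Library totals run from 2194028 to 3834568 counts. Members and gene lists were chosen with earlier results of these data known. Symbols came from RefSeq (GRCm38.p6) for 12206 ids by accession and 1644 by title; 9205 have none.

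Per id, counts of codes 5 and 6 and of codes 1 to 4 were fitted with edgeR 4.0.16 (quasi-likelihood, limma 3.58.1, R 4.3.3), with a term per library and class by tissue and by sex, and Benjamini-Hochberg adjustment over all ids tested. Every p-value called adjusted comes from edgeR unless another tool is named. Library shares were tested by exact permutation (scipy 1.17.1). Alternatives were DESeq2 1.42.0, TMM, other filters, codes and tag sets, and each library left out. On simulated data for 560 ids of the nervous comparison, 64.9% of ids changed by a log2 of 2, 20.6% of those changed by 1 and 0.542% of unchanged ids were called. The simulation gave all ids the same dispersion, no general shift and no library pair with a wider spread. Its rates hold for that setting and may differ in the data.

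Ids were named by rule: the 12 with most member CPM, the clearest non-overlapping calls per comparison (up to 12 between tissues, 4 per tissue and direction, 8 per direction for nervous tissue, 6 for sex) and up to 3 per gene list. The 11 called between hippocampus and spinal cord and the ids said to be picked after their values were seen were added, Picalm, Prlr, Slc39a3 and Exoc7 among these; overlapping calls named beside them are not part of the rule. A few ids that the rule names are not reported here.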

Additional observations from a re-analysis of the deposited data

Results flagged for a closer look

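In data outside the measure followed, 1241 tags with no annotation and 100 or more counts each were found in all 6 libraries of bone marrow, hippocampus and spinal cord. They had 0 counts in the other 8 libraries, and 514743 counts in all. No unannotated tag of 100 or more counts showed the opposite pattern (0 tags). Their source was not tested.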

How the results depend on the processing

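The labels give the libraries no replicate numbers, but the female and the male library pair across tissues by sex, and sex is a term of the fit. Without that term 69 ids were called between tissues (69 shared) and 70 for nervous tissue (68 shared). Between tissues 80 ids were called. The number was 44 with no minimum of other-site counts, 14 with code 6 only, 44 with DESeq2 (44 of them shared), 154 without both pancreas libraries (72 shared), and 60 to 145 leaving out 1 library. For nervous tissue, 70 calls became 42, 11, 45 (45 shared) and 171 (64 shared) in the same settings, and 41 to 110 leaving out 1 library. For each tissue against the others, 144 calls in all became 60, 25, 61 and 243, and 89 to 257. For hippocampus against spinal cord, 11 calls became 18 with a coverage minimum of 20, 25 with code 5 only, 7 without tags seen in 1 library, 2 with DESeq2, 30 without tags 1 base from a repeat tag, 6 on RefSeq, BC or AK rows only, and 2 to 21 leaving out 1 library. For sex, the 1 call became 0 with a coverage minimum of 5, no minimum, code 6 only, DESeq2, TMM, RefSeq, BC or AK rows only, without pancreas and without tags 1 base from a main or a repeat tag, and 0 to 1 leaving out 1 library. Of these zeros none shows that the sexes agree; 30 ids had an unadjusted p under 0.05. The sex difference of library shares was -0.0317 points with code 6 only (exact permutation p = 0.0469). The liver value of the RIKEN cDNA 4631427C17 id reversed to -0.42 with code 5 only and without tags 1 base from a repeat tag, since both leave out its A-rich tag. Other causes were not tested. With 2 libraries per tissue and few counts at other sites, most ids could not be tested: 591 of 13820 ids with a member were.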
